A study of Rattus norvegicus with 4 samples.

Results

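Interferon-induced genes and the factors that regulate them were followed in the livers of male Otsuka Long-Evans Tokushima Fatty (OLETF) rats, a model in which obesity and type 2 diabetes develop spontaneously. The set holds 41 genes, chosen by symbol: regulators, receptors, RNA sensors, antiviral effectors, the ISG15 system, TRIM and PARP proteins with their adaptors, and interferon-inducible GTPases. Of these 41, 33 had an array probe of their own and 30 had a probe above background in both livers of at least 1 group, out of 8985 genes measured that way. The thiamine group (2 rats on arrays) drank water with 0.2% thiamine, vitamin B1 (2 g in each L), over 51 weeks that began when the rats were 4 weeks old, and the untreated group (2 rats on arrays) had none. All 4 rats were male, carried the same OLETF background, ate the same chow, and were killed after a 16 h fast when 55 weeks old. The study kept 8 rats per group with 2 in a cage. Each liver was put on its own 1-colour CodeLink array with no pooling, and the labels do not say which animals were cage mates. The comparison asks how these genes stand in the liver after long thiamine intake in this obese strain.

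Interferons are secreted proteins that set cells on guard against infection. Type I interferons act through a receptor that contains Ifnar1, and lead Stat2 and Irf9 to the interferon-stimulated response element (ISRE) of genes such as Mx1, Ifit3 and Isg15. Interferon gamma acts through a receptor that contains Ifngr1 and activates genes through the gamma-activated site (GAS), such as Irf1, which then switches on further genes, among them GTPases such as Irgm. In the liver many of these genes, though not all, are known to be expressed by hepatocytes, Kupffer cells and endothelium.

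The promoters are shown first because type I interferons and interferon gamma act through these 2 elements. The type I and gamma-type targets were set by gene list and not by these elements. RefSeq windows of GRCr8, from 250 bases before to 50 bases after the transcript start, were matched by symbol for 33 of the 41 genes; Ifit2, Adar, Dhx58, Rigi, Usp18, Ifit1, Isg15 and Mx2 were not matched. The ISRE was searched as GAAANNGAAA on both strands, which reads TTTCNNTTTC on the other strand, and the GAS as TTCNNNGAA, which is its own reverse complement; the 2 motifs may overlap. An ISRE stood in 18 of the 33 windows (54.5%), against 3.92% of all 33469 windows, and a GAS in 9 of 33 (27.3%), against 8.87%. Among type I targets 11 of 14 windows held an ISRE and 2 of 14 a GAS, whereas among gamma-type targets 4 of 7 held an ISRE and 5 of 7 a GAS. The windows of the type I targets Mx1, Oasl and Ube2l6 held neither motif. For 16 of the 33 genes, Irgm included, the gene's annotated span begins upstream of the start that the window uses, so that a motif near an earlier start would not be seen here. A match is a run of letters and not a measured binding site.

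In Irgm, Igtp and Parp14 an ISRE began 11 bases after the first base of a GAS, and these stretches are given because the 3 genes share that arrangement. Capitals mark the motif letters, and each line reads 5′ to 3′ on the gene's own strand.
Irgm, chr10:33742593-33742633, minus strand: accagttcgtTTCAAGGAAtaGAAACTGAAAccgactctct
Igtp, chr10:42874923-42874963, plus strand: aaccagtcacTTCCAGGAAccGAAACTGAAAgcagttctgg
Parp14, chr11:78408037-78408077, plus strand: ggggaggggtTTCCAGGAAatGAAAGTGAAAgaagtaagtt
Of all 33469 windows 4 (0.012%) had this spacing, the other being that of Irgm2, a further immunity-related GTPase. Irgm, Igtp and Irgm2 are members of 1 gene family, so their windows share descent, and the spacing was noticed in these windows before it was counted.

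A second set shows an ISRE alone in the type I targets Ifit3, Irf7, Isg20 and Rsad2, a GAS that runs into a double ISRE in Bst2, and a GAS alone in Irf1, Irf8, Irf9 and Ifi47.
Ifit3, chr1:241527272-241527301, plus strand: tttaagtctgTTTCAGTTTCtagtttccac
Irf7, chr1:205800073-205800102, minus strand: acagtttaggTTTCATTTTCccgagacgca
Isg20, chr1:142239957-142239986, plus strand: taatgaaccaGAAACTGAAActaaaacggc
Rsad2, chr6:48788248-48788277, minus strand: ctggttcaacTTTCATTTTCagaaaacaga
Bst2, chr16:18255073-18255114, minus strand: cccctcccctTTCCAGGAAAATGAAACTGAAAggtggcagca
Irf1, chr10:38417783-38417812, plus strand: acagcctgatTTCCCCGAAatgatgaggcg
Irf8, chr19:65699094-65699142, plus strand: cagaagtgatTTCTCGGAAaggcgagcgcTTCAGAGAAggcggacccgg
Irf9, chr15:33065727-33065756, plus strand: accacgtgatTTCTAGGAActgcacctccc
Ifi47, chr10:33798638-33798667, plus strand: tgaaatcattTTCCTGGAAatgtttatgcc
The ISRE of Ifit3, Irf7 and Rsad2 lies on the opposite strand and therefore appears as its reverse complement.

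**Figure D1:**
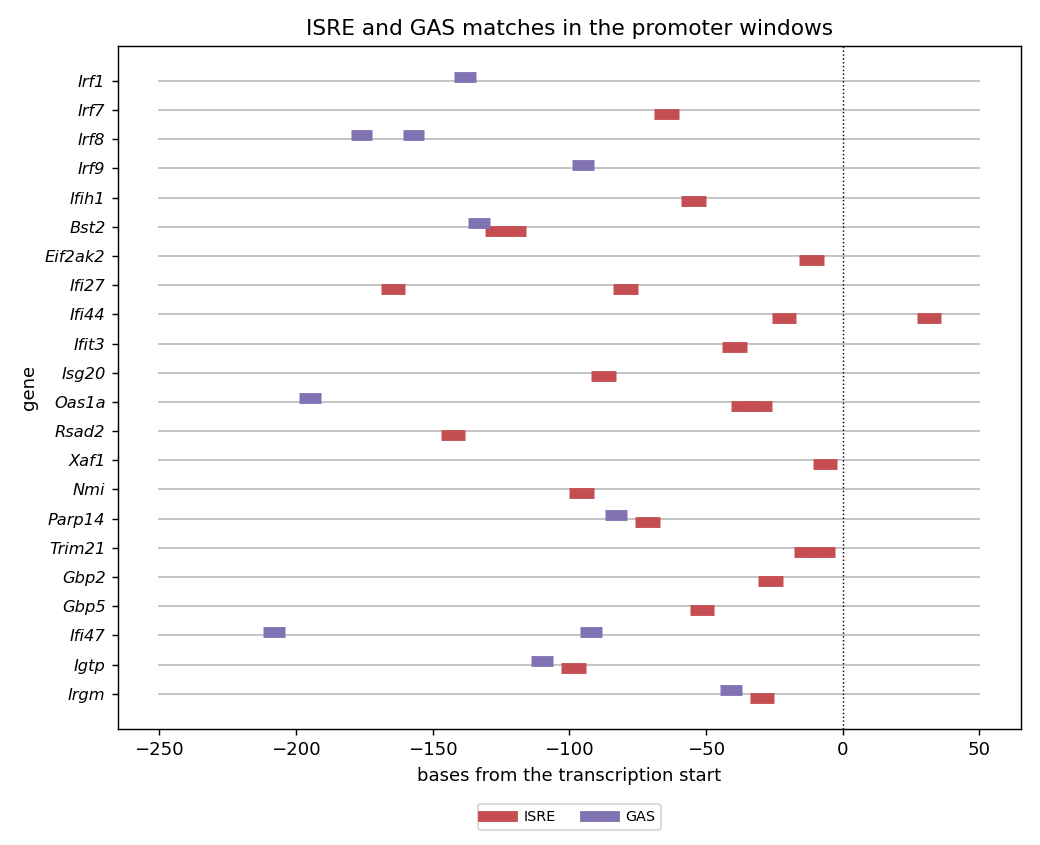
Positions of ISRE (red) and GAS (violet) matches in the 22 member windows that hold either motif, in bases from the transcript start used (horizontal axis), 1 gene per row, ordered by role. In Irgm, Igtp and Parp14 the GAS stands directly upstream of the ISRE.

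The 2 genes with the widest separation between the groups were Irgm and Irf1, and their 250 bases before the start are given in full, since both belong to the gamma-type targets.
Irgm, chr10:33742579-33742828, minus strand: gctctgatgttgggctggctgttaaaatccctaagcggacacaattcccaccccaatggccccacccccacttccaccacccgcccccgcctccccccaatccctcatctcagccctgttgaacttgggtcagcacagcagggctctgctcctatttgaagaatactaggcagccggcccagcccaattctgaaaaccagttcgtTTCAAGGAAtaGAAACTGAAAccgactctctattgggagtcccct
Irf1, chr10:38417685-38417934, plus strand: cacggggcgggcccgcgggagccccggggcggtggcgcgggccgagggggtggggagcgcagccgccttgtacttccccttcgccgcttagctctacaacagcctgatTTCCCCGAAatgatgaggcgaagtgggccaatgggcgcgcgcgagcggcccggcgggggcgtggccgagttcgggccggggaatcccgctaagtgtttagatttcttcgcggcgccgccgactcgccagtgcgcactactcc
Irgm holds the GAS and ISRE pair close to its start, and Irf1 holds a GAS with no ISRE.

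Levels below are log2 intensities after background correction and quantile normalization, so that a difference of 1 is a 2-fold change, and each difference is thiamine less untreated with its moderated SE from limma, a value shrunk towards that of the other probes (n = 2 rats per group). Precision is limited by having 2 animals in each group. Nothing in the labels pairs the rats of the groups, and the p-values measure only the spread between these 4 rats. Levels of different probes are not set against each other. Between 18176 and 20071 of 33849 gene probes were above background per array, and no array stood apart in that count. Hepatocyte markers bore out the tissue label: all 9 were above background on all 4 arrays. The spots of Alb, Ttr, Serpina1 and Tf were flagged as saturated on all 4, so that their levels cannot be compared between the groups. Of the others, Apoa1, Apoh, Fgb and Hnf4a overlapped between the groups. Hnf4a was at 10.11 and 10.29 in the thiamine livers, against 10.31 and 10.18 in the untreated livers. Cps1 did not overlap, at 13.21 and 13.21 in the thiamine livers, against 12.77 and 12.58 in the untreated livers. Its difference was 0.53 ± 0.18, with an adjusted p of 0.539 by limma. These are whole livers, in which fewer cells of a type and less RNA per cell cannot be told apart.

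No interferon gene passed the test between thiamine and untreated livers, and the widest separations were downward. Irgm, Irf1, Isg15, Ube2l6, Parp14 and Ifi44 had both thiamine livers below both untreated livers, whereas Ifit3 and Rsad2 had both thiamine livers above. The other 22 of the 30 measured genes overlapped between the groups. By limma with Benjamini-Hochberg adjustment over 18664 probes, 0 of the 30 members and 0 probes in all passed an adjusted p of 0.05 (background 0% of 8985 genes). The smallest adjusted p was 0.272 among the members and 0.216 over all probes, of which 1260 had an unadjusted p under 0.05. At that unadjusted level 2 members were lower, Irgm and Irf1, and 0 were higher, against 3.06% of all genes lower and 3.83% higher. Non-overlap with thiamine lower was found in 19.0% of all genes and with thiamine higher in 18.5%, so that 6 and 2 of 30 are close to or under the background shares. Of the 30 members 10 had a positive and 20 a negative difference, with a median of -0.094, against a median of 0.0035 over all genes. That median rested on single rats: leaving out thiamine rat 1 gave -0.061, thiamine rat 2 -0.031, untreated rat 1 -0.033 and untreated rat 2 -0.187.

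**Figure D2:**
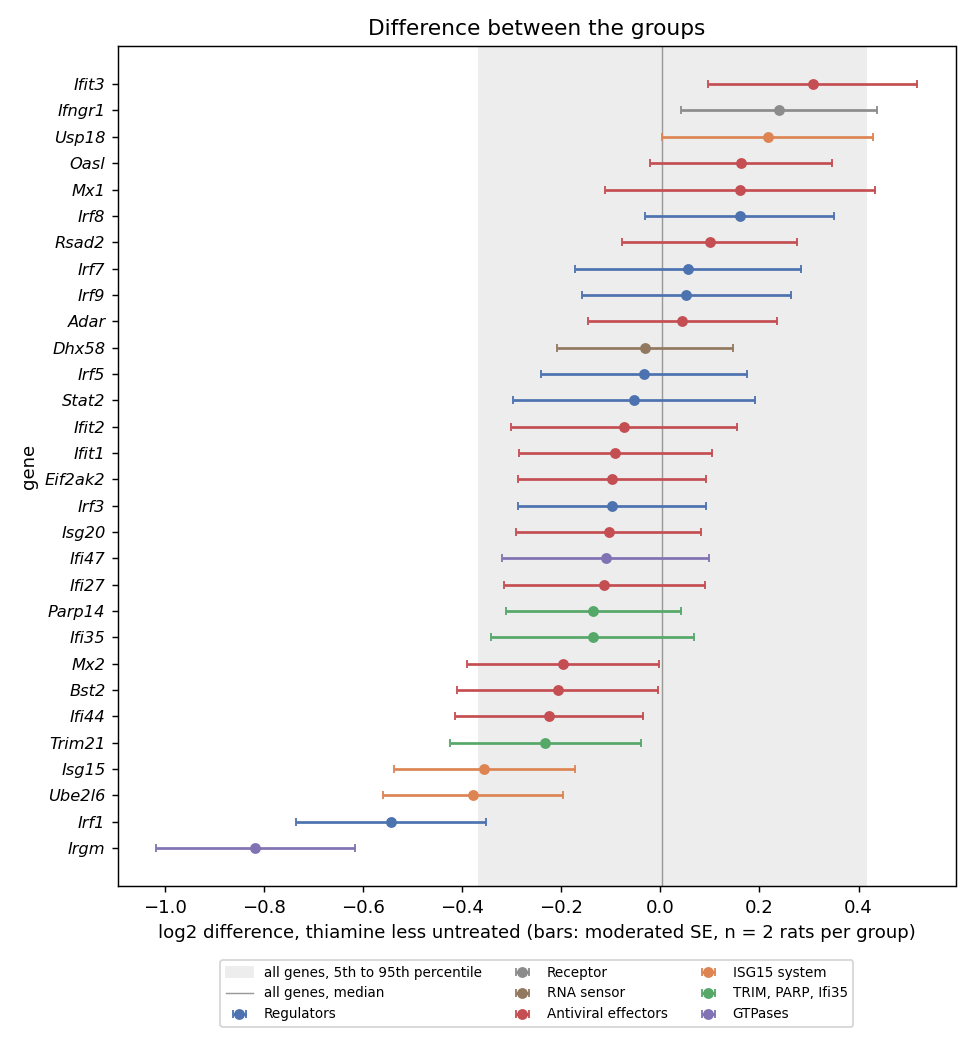
Log2 difference, thiamine less untreated, of the 30 measured genes (points) with the moderated SE (bars, n = 2 rats per group), coloured by role and ordered by size. The grey band spans the 5th to the 95th percentile of 8985 genes (-0.37 to 0.42) and the line marks their median. Irgm, Irf1 and Ube2l6 are below the band.

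Of the gamma-type targets, Irgm and Irf1 were separated between the groups and Ifi47 was not. Irgm, an immunity-related GTPase that acts on vacuoles around intracellular pathogens in mice, was at 8.18 and 8.02 in the thiamine livers, against 9.12 and 8.71 in the untreated livers. Both thiamine livers were low, by more than the gap within either group. The difference was -0.82 ± 0.20, with an adjusted p of 0.272 by limma, and 0.412% of all genes had a lower one. It ranged between -1.02 and -0.61 when each rat was left out in turn. A group difference wider than both within-group gaps, in either direction, was found in 6 of 30 members, against 2190 of 8985 genes. Ifi47, a second GTPase of that family, was at 9.47 and 9.15 in the thiamine livers, against 9.62 and 9.22 in the untreated livers, a difference of -0.11 ± 0.21. Here rat 1 was the higher animal in both groups, and the groups overlapped. Igtp had no probe of its own, and the probes of Gbp2 and Gbp5, guanylate-binding proteins, were not above background on both arrays of either group.

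Irf1, a transcription factor induced by interferon gamma, was at 9.37 and 9.06 in the thiamine livers, against 9.68 and 9.84 in the untreated livers. Both thiamine livers were low, with a difference of -0.54 ± 0.19 and an adjusted p of 0.569 by limma. The second Irf1 probe was at 9.06 and 9.12 in the thiamine livers, against 9.15 and 9.32 in the untreated livers, and its difference of -0.15 ± 0.18 was smaller and of the same sign. Irf8, a factor of macrophages and dendritic cells, was at 7.73 and 8.07 in the thiamine livers, against 7.74 and 7.73 in the untreated livers. On both untreated arrays its probe was not well above background, and its spot in untreated rat 1 was also flagged as contaminated. The measured means were 7.90 in thiamine and 7.74 in untreated livers, which did not pass the test (adjusted p of 0.925 by limma). Thiamine rat 1 was below both untreated livers, and the difference became -0.010 when thiamine rat 2 was left out, so no direction is given. Irf8 entered the measured genes only through the thiamine arrays. The 4 measured gamma-type targets (Irgm, Ifi47, Irf1 and Irf8) had a median difference of -0.33, with 3 negative and 1 positive. Leaving out thiamine rat 1 gave -0.49 and leaving out thiamine rat 2 gave -0.20. The value was -0.54 over the 3 genes above background on all 4 arrays, and -0.23 with the probes of each gene averaged.

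The factors of the type I pathway differed more between the 2 untreated rats than between the groups. Over all genes, untreated rat 1 less untreated rat 2 had 25th and 75th percentiles of -0.22 and 0.23. Thiamine less untreated had -0.14 and 0.16, so a wider untreated gap was not particular to these factors. Stat2, which acts with Irf9 at the ISRE, was at 11.77 and 11.58 in the thiamine livers, against 12.10 and 11.34 in the untreated livers. Irf7, the factor that amplifies type I interferon production and is itself a type I target, was at 10.51 and 10.62 in the thiamine livers, against 10.84 and 10.18 in the untreated livers. Irf9, which recognises the ISRE, was at 10.23 and 10.47 in the thiamine livers, against 10.54 and 10.06 in the untreated livers. In all 3 genes untreated rat 1 was the highest of the 4 livers and untreated rat 2 the lowest, with both thiamine livers between them. The differences were -0.053 ± 0.24 for Stat2, 0.057 ± 0.23 for Irf7 and 0.052 ± 0.21 for Irf9. Irf3, which starts type I interferon production in infected cells, was at 11.64 and 11.53 in the thiamine livers, against 11.53 and 11.84 in the untreated livers. Irf5, a factor of inflammatory cytokine genes, was at 8.28 and 8.52 in the thiamine livers, against 8.21 and 8.66 in the untreated livers. In both of these untreated rat 2 was the highest liver, the reverse of Stat2, and the groups overlapped. Of the receptors, Ifnar1 had no probe of its own, and Ifngr1, the ligand-binding chain of the gamma receptor, was at 9.69 and 9.30 in the thiamine livers, against 9.18 and 9.33 in the untreated livers. Thiamine rat 1 alone was high for Ifngr1, and the difference was 0.24 ± 0.20. The RNA sensors Rigi and Ifih1 had no probe of their own. Dhx58, the third helicase of that family, was at 9.50 and 9.46 in the thiamine livers, against 9.47 and 9.55 in the untreated livers, and rat 1 less rat 2 was 0.033 in the thiamine group and -0.088 in the untreated group. The Dhx58 spots in thiamine rat 1 and untreated rat 1 were flagged as contaminated.

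Among the antiviral effectors 13 of 15 were measured, 5 with a positive and 8 with a negative difference and a median of -0.091. Ifit3, which binds Ifit1 on foreign RNA, was at 9.16 and 9.21 in the thiamine livers, against 9.15 and 8.61 in the untreated livers. Its groups did not overlap, but untreated rat 1 stood close to both thiamine livers, and only untreated rat 2 was low. The difference of 0.31 ± 0.21 became 0.037 when untreated rat 2 was left out and 0.58 when untreated rat 1 was. Rsad2 (viperin), an enzyme that makes an antiviral nucleotide, was at 7.92 and 7.89 in the thiamine livers, against 7.84 and 7.77 in the untreated livers, a separation of 0.10 ± 0.18. Ifi44 was at 10.74 and 10.42 in the thiamine livers, against 10.77 and 10.83 in the untreated livers. Only thiamine rat 2 was clearly low for Ifi44, and the thiamine rat 1 spot was flagged as contaminated; the difference was -0.22 ± 0.19 with that spot and -0.38 without it.

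Mx1, a dynamin-like GTPase that blocks virus replication, had the widest gap between untreated rats of all members. It was at 9.0 and 8.81 in the thiamine livers, against 9.22 and 8.27 in the untreated livers, so that both extremes were untreated. Its difference of 0.16 ± 0.27 became -0.31 when untreated rat 2 was left out and 0.64 when untreated rat 1 was. Mx2 was at 8.83 and 9.05 in the thiamine livers, against 9.29 and 8.98 in the untreated livers, and its 2 kept probes had opposite signs (-0.20 and 0.12). Eif2ak2, the kinase PKR that stops translation on double-stranded RNA, was at 11.57 and 11.41 in the thiamine livers, against 11.73 and 11.45 in the untreated livers. It too had probes of opposite sign (-0.098 and 0.18). The Oas protein Oasl was at 9.59 and 9.46 in the thiamine livers, against 9.47 and 9.26 in the untreated livers, where untreated rat 2 was the lowest. Oas1a shared its only probe with a related gene and is therefore not given.

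The remaining effectors overlapped between the groups. Ifi27, a small membrane protein that interferon induces strongly, was at 13.85 and 13.73 in the thiamine livers, against 14.13 and 13.68 in the untreated livers. Ifit1, which binds foreign RNA caps, was at 7.47 and 7.59 in the thiamine livers, against 7.80 and 7.44 in the untreated livers, and was not above background in untreated rat 2. Both genes were highest in untreated rat 1 and lowest in untreated rat 2. Ifit2, their neighbour in function, ran the other way, at 8.58 and 8.33 in the thiamine livers, against 8.21 and 8.84 in the untreated livers. Isg20, an exonuclease, was at 7.72 and 7.95 in the thiamine livers, against 8.02 and 7.86 in the untreated livers. Bst2 (tetherin), which holds budding virus to the cell, was at 11.70 and 12.14 in the thiamine livers, against 12.05 and 12.21 in the untreated livers, and thiamine rat 1 alone was low. The Bst2 spot in untreated rat 2 was flagged as contaminated, and the difference was -0.21 with that spot and -0.11 without it. Adar, the editor of double-stranded RNA, was at 8.58 and 8.51 in the thiamine livers, against 8.34 and 8.67 in the untreated livers. Xaf1, a pro-apoptotic factor, had no probe of its own. Probe sequences were not used here, so that cross-hybridisation among related copies of Mx, Ifit, Oas and GTPase genes was not checked.

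In the ISG15 system both thiamine livers lay below both untreated livers for the modifier and its conjugating enzyme, and not for its protease. Isg15, the ubiquitin-like protein, was at 10.80 and 10.69 in the thiamine livers, against 11.18 and 11.01 in the untreated livers. Ube2l6, the enzyme that passes Isg15 to its targets, was at 10.89 and 10.79 in the thiamine livers, against 11.13 and 11.30 in the untreated livers. In both genes the 2 thiamine livers were close together and below both untreated livers, by more than either within-group gap. A group difference wider than both within-group gaps was found in 6 of 30 members, against 2190 of 8985 genes. Isg15 and Ube2l6 differed by -0.35 ± 0.18 and -0.38 ± 0.18, with adjusted p of 0.797 and 0.764 by limma. With 1 rat left out the differences ranged over -0.44 to -0.27 for Isg15 and -0.47 to -0.29 for Ube2l6. As the groups do not overlap, leaving out a rat could not turn either sign. Usp18, which removes Isg15 and dampens the type I receptor, was at 11.05 and 11.02 in the thiamine livers, against 11.09 and 10.54 in the untreated livers, a difference of 0.22 ± 0.21. On that Usp18 probe only untreated rat 2 was low. The second probe was at 10.17 and 10.03 in the thiamine livers, against 9.87 and 9.85 in the untreated livers. There both untreated livers were below both thiamine livers, with a difference of 0.24 ± 0.18. Whether Usp18 differs from Isg15 in its response was not tested.

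Of the TRIM and PARP proteins and adaptors, 3 of 6 were measured and all 3 had negative differences. Parp14, a mono-ADP-ribosyltransferase, had 3 kept probes with no overlap between the groups. The brightest was at 10.47 and 10.47 in the thiamine livers, against 10.63 and 10.58 in the untreated livers, a difference of -0.13 ± 0.18. The second was at 9.49 and 9.45 in the thiamine livers, against 9.81 and 9.68 in the untreated livers (-0.28 ± 0.18). The dimmest was at 7.39 and 7.43 in the thiamine livers, against 7.97 and 7.90 in the untreated livers (-0.52 ± 0.18, adjusted p of 0.529 by limma). The 3 probes thus agreed in direction and differed in size. Trim21, an antibody receptor and ubiquitin ligase inside the cell, was at 7.58 and 7.89 in the thiamine livers, against 8.06 and 7.87 in the untreated livers, and thiamine rat 1 alone was low. Ifi35, an adaptor that pairs with Nmi, was at 8.04 and 7.77 in the thiamine livers, against 7.84 and 8.25 in the untreated livers. Trim25 and Parp9 had no probe of their own, and the Nmi probe was not above background on both arrays of either group.

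**Figure D3:**
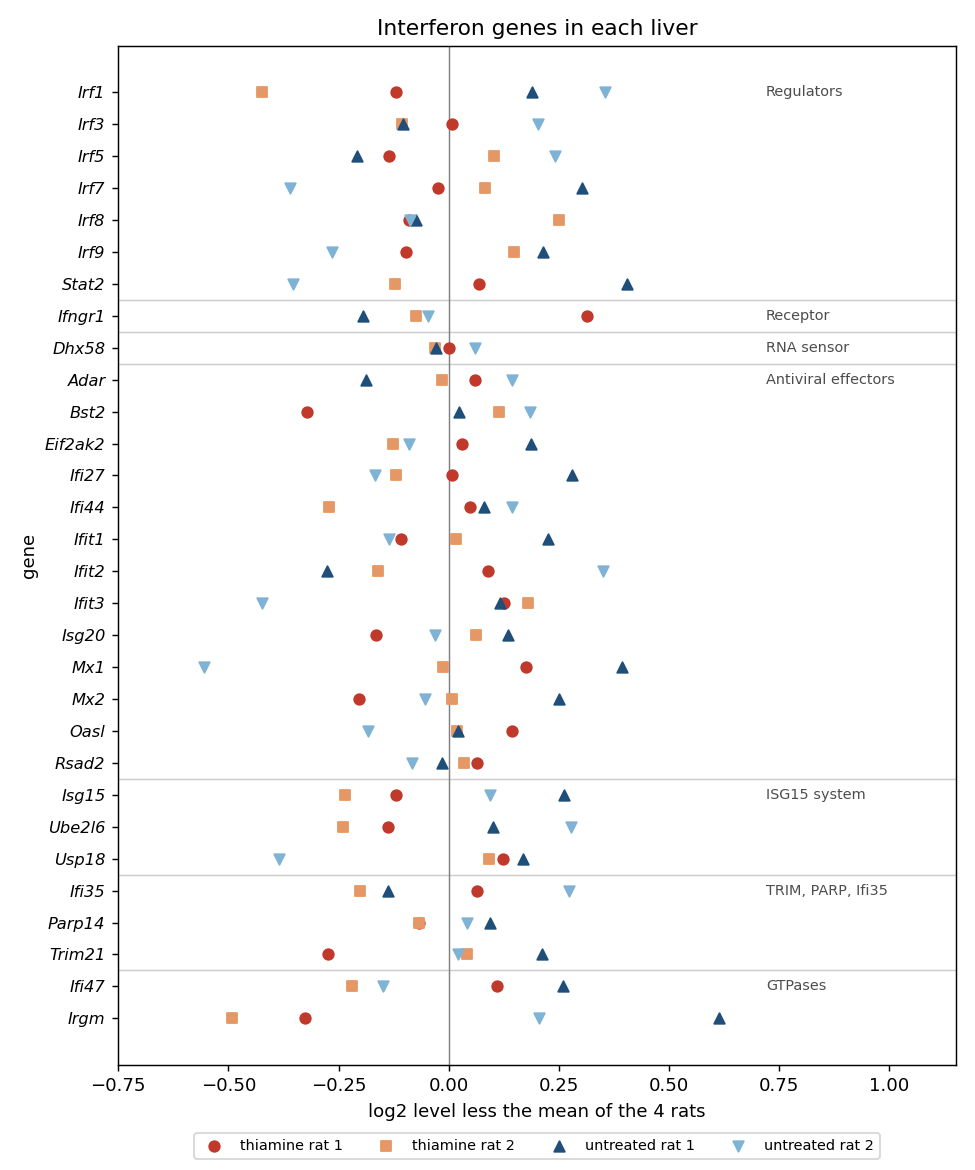
Log2 level of each measured gene in each liver, less the mean of the 4 livers (horizontal axis), 1 gene per row, grouped by role; red and orange are thiamine rats 1 and 2, dark and light blue untreated rats 1 and 2. In Irgm both thiamine livers are left of both untreated livers, whereas in Mx1, Stat2 and Irf7 the 2 untreated livers are the extremes.

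The spread of the type I targets lay mainly between the untreated rats. Untreated rat 1 was above untreated rat 2 in 19 of 30 members, against 52.0% of all genes, and thiamine rat 1 was above thiamine rat 2 in 19 of 30, against 51.4%. The median of thiamine rat 1 less thiamine rat 2 over the 17 measured type I targets was 0.033, and that of untreated rat 1 less untreated rat 2 was 0.21 (0.0071 and 0.016 over all genes). The size of the gap, with its sign dropped, had a median of 0.18 over members and 0.16 over all genes in the thiamine group, and of 0.30 and 0.22 in the untreated group. A wider untreated gap than that of Mx1 was found in 1.61% of all genes, than that of Stat2 in 3.86% and than that of Irf7 in 6.12%. Untreated rat 1 was the highest and untreated rat 2 the lowest of the 4 livers in 7 of 30 members (Ifi27, Ifit1, Irf7, Irf9, Mx1, Stat2 and Usp18), or 23.3%, against 10.2% of all genes. Usp18 counts here by its brightest probe, and on its second kept probe untreated rat 1 was below both thiamine livers. Not all members followed: untreated rat 1 less untreated rat 2 was -0.63 for Ifit2 and -0.33 for Adar.

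**Figure D4:**
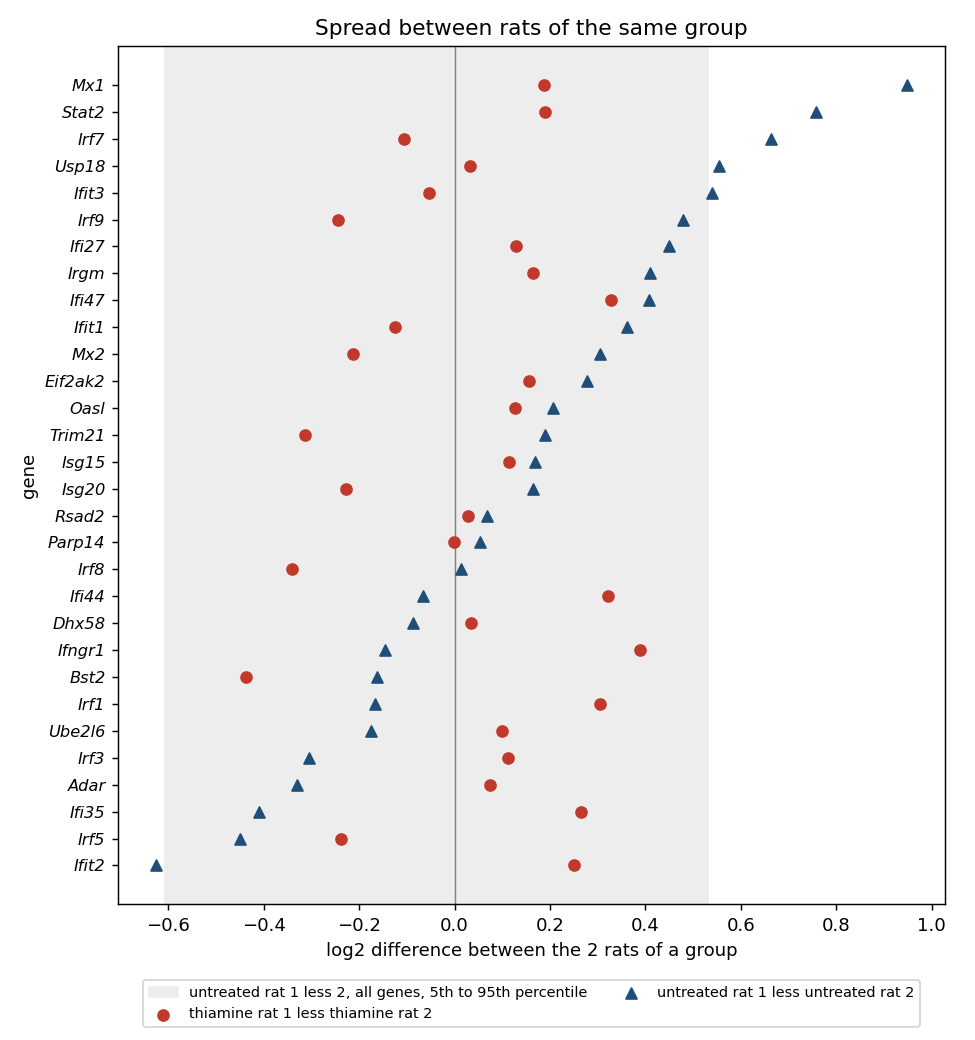
Log2 difference between rat 1 and rat 2 of the thiamine group (red circles) and of the untreated group (blue triangles) for the 30 measured genes, ordered by the untreated difference. The grey band spans the 5th to the 95th percentile of the untreated difference over 8985 genes (-0.61 to 0.53). Mx1, Stat2, Irf7, Usp18 and Ifit3 are above the band and Ifit2 is below it.

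Type I and gamma-type targets were also set side by side in each rat, each gene less its mean over the 4 livers. The type I median was 0.0074 and 0.0082 in thiamine rats 1 and 2, against 0.13 and -0.084 in untreated rats 1 and 2. The gamma-type median was -0.10 and -0.32 in thiamine rats 1 and 2, against 0.22 and 0.059 in untreated rats 1 and 2. Type I less gamma-type was thus 0.11 and 0.33 in the thiamine livers, against -0.089 and -0.14 in the untreated livers. These values did not overlap, and the contrast was not tested. Among all genes, taken singly, non-overlap was found in 18.5% with thiamine higher and in 19.0% with thiamine lower. The gamma-type median rests on 4 genes, of which Irf8 was dim in both untreated livers. It uses the brightest Irf1 probe, and the second Irf1 probe had a smaller difference of -0.15. The type I median difference was -0.091 over 17 of 21 genes (6 positive and 11 negative) and turned to 0.041 when untreated rat 1 was left out; leaving out thiamine rat 1, thiamine rat 2 or untreated rat 2 gave -0.028, -0.020 and -0.19. Grouped by the promoter letters, the 7 measured members with a GAS had a median difference of -0.13 (5 negative), the 8 with an ISRE alone -0.10 (5 negative) and the 8 with neither -0.043 (5 negative). The GAS class includes Irf8, which was dim in both untreated livers, and no difference between the classes was tested.

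Other genes of the interferon pathway were taken from a list of 85, of which 47 were measured: 19 had positive and 28 negative differences, with a median of -0.12, and 0 passed the adjusted test. Both thiamine livers were below both untreated livers in 21 of 47 and above in 7 of 47, and at an unadjusted p under 0.05 there were 7 lower and 1 higher. Non-overlap was found in 19.0% of all genes downward and 18.5% upward, and an unadjusted p under 0.05 by limma in 3.06% downward and 3.83% upward. The 8 genes with the lowest p had adjusted p between 0.251 and 0.735 by limma. Psmb10, an immunoproteasome subunit, was at 10.64 and 10.21 in the thiamine livers, against 11.25 and 11.29 in the untreated livers (difference -0.85 ± 0.20, adjusted p of 0.251 by limma). Psmb9, its partner subunit, was at 10.05 and 9.69 in the thiamine livers, against 10.56 and 10.59 in the untreated livers. Tapbp (tapasin), which loads the peptide, was at 10.19 and 10.16 in the thiamine livers, against 10.54 and 10.92 in the untreated livers. Its spot in untreated rat 2 was flagged as contaminated. Tap1, the peptide transporter, was at 8.29 and 8.22 in the thiamine livers, against 8.96 and 8.46 in the untreated livers. All 4 were lower in both thiamine livers, and none passed the adjusted test. Psmb8, Psme1 and Psme2, the remaining proteasome genes of the list, were at -0.22 ± 0.19, -0.26 ± 0.18 and -0.28 ± 0.18, also with no overlap, while B2m, the light chain of the class I complex, was at 0.15 ± 0.19 with overlap; these 4 were singled out after their values were seen.

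Ikbke, a kinase that activates Irf3 and Irf7, was at 7.35 and 7.68 in the thiamine livers, against 8.24 and 8.37 in the untreated livers, a difference of -0.78 ± 0.19. Stat3, a factor that answers interleukin-6, was at 12.51 and 12.40 in the thiamine livers, against 13.15 and 12.76 in the untreated livers. Trafd1, a dampener of innate signalling, was at 10.004 and 9.83 in the thiamine livers, against 10.33 and 10.47 in the untreated livers. These 3 were lower in both thiamine livers. Ifitm1, a membrane protein that hinders virus entry, was the only 1 of these 8 to run the other way, at 11.85 and 11.88 in the thiamine livers, against 11.53 and 11.20 in the untreated livers. Of the signalling chain, the kinase Jak2 was at 14.84 and 14.91 in the thiamine livers, against 14.94 and 14.61 in the untreated livers, and its spot in untreated rat 1 was flagged as saturated. The kinase Tyk2 had a difference of 0.016 ± 0.18, and Socs1, the feedback inhibitor of the Jak kinases, had -0.23 ± 0.19. The Socs1 spot in thiamine rat 2 was flagged as contaminated. Jak1, Ifngr2, Socs3 and Ifng had no probe above background on both arrays of a group, and Ifnar2 had no probe of its own.

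Markers of cells that express interferon genes were read beside these values. Of 16 Kupffer cell markers 9 were measured and all 9 had positive differences, with a median of 0.62; 6 of the 9 did not overlap, against 18.5% of all genes, and 0 passed the adjusted test. Their summed signal was 29062 and 20203 in the thiamine livers, against 19734 and 12800 in the untreated livers, higher in rat 1 of each group. The Kupffer marker Clec4f was at 13.42 and 13.01 in the thiamine livers, against 13.02 and 12.17 in the untreated livers. Marco, Vsig4 and Timd4 had no probe of their own. Of 11 endothelial markers 7 were measured, 6 with positive differences and a median of 0.42, and their summed signal was 6424 and 5967 in the thiamine livers, against 4946 and 4278 in the untreated livers. Of 14 T and NK cell markers 6 were measured, with summed signals of 1998 and 1874 in the thiamine livers, against 1971 and 1700 in the untreated livers. The dendritic cell markers (5 of 11 measured) summed to 1894 and 1599 in the thiamine livers, against 1485 and 1494 in the untreated livers. The Kupffer and endothelial medians were positive, and so were 5 of 5 dendritic and 4 of 6 T and NK cell differences. Of the 30 members 20 had negative differences, Irgm, Irf1 and Isg15 among them, and 10 positive ones, Ifit3 and Usp18 among them. Of the 47 other pathway genes 28 had negative differences, the proteasome genes among them, and 19 positive ones, Ifitm1 among them. Rat 1 less rat 2 over the Kupffer markers had a median of 0.70 in the thiamine group and 0.44 in the untreated group, whereas over the type I targets it was 0.033 and 0.21. The part of cell makeup in either was not tested.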

How the data were processed

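Liver RNA of 2 thiamine and 2 untreated rats was measured on 1 CodeLink array each, with groups and replicate numbers as labelled. The deposited reports give, per the file headers, linear intensity values: spot mean, local background median and their difference, unnormalized, with a quality flag. The authors' value table gives 1 intensity per probe and array, with column medians between 147.483 and 147.506; the labels do not state its method, and it served as an alternative.

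Background was corrected with normexp (offset 50, 35129 features), 1280 control features were left out, and log2 values of 33849 gene probes were quantile normalized. Masked spots (55 to 67 per array) were missing; contaminated spots (1.49% to 7.49%) were kept. A probe was kept where 1 group or more had it above background on both arrays (18664). Probe names came from the platform annotation and, for 367 probes, RefSeq accessions; 165 probes with several genes, 11 with conflicting names and 16564 with none were left unnamed. A gene is its brightest kept probe. The comparison used limma 3.58.1 under R 4.3.3 (lmFit and eBayes; two-sided; adjusted by Benjamini-Hochberg across the kept probes; threshold 0.05). Each probe has 2 residual degrees of freedom, or 10.8 once moderated, and the median SE was 0.19. The fit was tested on simulated data. Every measured member is named, and of the 85 other pathway genes the 8 with the lowest unadjusted p plus signalling genes chosen by name; some genes of that list are not reported here. Members and lists were chosen with earlier results of these data known. Alternatives changed the background correction, offset, scaling, filter, flagged spots, probe choice, replicate block and left-out rat. Same-numbered rats of the 2 groups deviated from their group means with a correlation of -0.0737, so the numbers were not taken as pairs.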

Additional observations from a re-analysis of the deposited data

How the results depend on the processing

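With 2 rats per group, 1 rat decides many of these values. The count of members past the threshold was 0 with the processing reported here and under the 12 alternatives that give this count, and the lowest adjusted p that limma gave any member was 0.0735. Over all probes the count was 0 with that processing (1260 at an unadjusted p under 0.05) and in 7 processing alternatives, between 1 and 65 when 1 rat was left out (a lone rat is then assumed to vary like the other group), and 126 with the replicate block; the cause was not tested. The labels give no ground for pairing, with only 2 pairs and a correlation of -0.0737, and the block called none of the members. The median over members was between -0.187 and -0.031 when 1 rat was left out, that over type I targets between -0.19 and 0.041, and that over gamma-type targets between -0.49 and -0.20. The gamma-type median was -0.54 over probes above background on all 4 arrays, where Irf8 drops out. With the probes of each gene averaged, the medians were -0.063 over members, -0.038 over type I targets and -0.23 over gamma-type targets. Of the 30 members 12 kept their sign under all of the 13 alternatives that apply to them, Irgm, Irf1, Isg15 and Ube2l6 among them. Many of these alternatives could not turn a sign. Changing the filter or adding the replicate block leaves a gene's difference as it was. Averaging over probes applies only to genes with several kept probes. Leaving out 1 rat cannot reverse a gene whose groups do not overlap, such as these named genes. The other 18 members changed sign in at least 1 alternative. Dhx58 was at 0.0047 with median scaling and Eif2ak2 at 0.044 as a mean over its probes. With 1 rat left out the differences ranged over -0.12 to 0.21 for Adar, -0.43 to 0.012 for Bst2, -0.074 to 0.013 for Dhx58, -0.24 to 0.041 for Eif2ak2, -0.34 to 0.11 for Ifi27 and -0.34 to 0.069 for Ifi35. The ranges were -0.31 to 0.093 for Ifi47, -0.27 to 0.090 for Ifit1, -0.39 to 0.24 for Ifit2, -0.25 to 0.054 for Irf3, -0.26 to 0.19 for Irf5 and -0.28 to 0.39 for Irf7. They were -0.010 to 0.33 for Irf8, -0.19 to 0.29 for Irf9, -0.22 to 0.0091 for Isg20, -0.31 to 0.64 for Mx1, -0.43 to 0.33 for Stat2 and -0.060 to 0.49 for Usp18. Each array is its own slide and the headers give no scan date, so a batch block was not run. In alternatives added after seeing the data, the median rat 1 less rat 2 gap of type I targets was between 0.033 and 0.098 in the thiamine group and between 0.18 and 0.27 in the untreated group. Signal over background limits Irf8, dim in both untreated livers, and Ifit1 and Ciita, dim in untreated rat 2.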

Other observations

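Oas1b, an Oas1 gene related to the member without a probe of its own, was at 7.73 and 7.97 in the thiamine livers, against 7.47 and 7.46 in the untreated livers, a difference of 0.38 ± 0.18 with no overlap (adjusted p of 0.764 by limma). It was named after its values were seen. Ifnb1, the interferon beta gene itself, was at 7.68 and 7.81 in the thiamine livers, against 8.17 and 8.09 in the untreated livers (-0.38 ± 0.18, adjusted p of 0.75 by limma), and it too was named after its values were seen.

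The interferon gamma-inducible chemokines did not show the separation of Irgm and Irf1. Cxcl9 was at 12.07 and 11.65 in the thiamine livers, against 12.01 and 11.24 in the untreated livers. Cxcl10 was at 8.45 and 7.92 in the thiamine livers, against 7.86 and 8.09 in the untreated livers, and Cxcl11 had a difference of 0.012 ± 0.18. In all 3 the groups overlapped. Ciita, the activator of MHC class II genes, was at 8.33 and 7.70 in the thiamine livers, against 7.84 and 7.42 in the untreated livers. Its spot was flagged as irregular in thiamine rat 1 and was not above background in untreated rat 2, so that no difference is given. The Cxcl9 spot in thiamine rat 1 was flagged as contaminated. These 4 were named after their values were seen.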
